A study of Mus musculus with 9 samples.

Results

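The genes described here are those that carry, import, activate and sense thyroid hormone in mouse islets: the binding proteins *Serpina7* and *Ttr*, the transporter *Slc16a10*, the deiodinase *Dio1*, the receptors *Thra* and *Thrb*, and their partner *Rxra*. They were found as probe sets that the platform annotation pairs with exactly 1 of these 7 symbols, which gave 17 of the 45037 probe sets in the table and 7 of its 18193 genes. The genes were chosen by their KO and WT values on these same arrays, above all the rise of *Serpina7*, so their differences are given as a description and carry no test. Islet RNA of 8-week-old male mice was hybridised to 9 Affymetrix mouse expression arrays, 5 from WT and 4 from KO islets, and every array held RNA pooled from the islets of 5 animals.

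KO mice (βRapKO) carried *Raptor* flox/flox alleles and a Cre transgene driven by the rat insulin promoter, so that *Raptor*, a core component of the kinase complex mTORC1, was deleted in beta cells. WT mice were littermates that carried the same flox/flox alleles without Cre. The labels give the strain as C57BL/6, while the methods describe the Cre line as a stock of mixed background. The Cre transgene and the deletion cannot be told apart in these groups. Replicates were separate pools, so errors and p-values measure how pools of 1 genotype varied, and their number limits the precision.

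Thyroxine (T4) travels in blood bound to thyroxine-binding globulin, transthyretin and albumin, which are made mainly by the liver. It enters cells through membrane transporters and is turned by deiodinases, which are selenoproteins, into the active hormone T3. T3 binds nuclear receptors that sit on DNA as partners of retinoid X receptors and exchange corepressors for coactivators. In the islet, transthyretin is also a product of endocrine cells, and thyroid hormone is known as a factor in the postnatal maturation of beta cells.

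*Serpina7* encodes thyroxine-binding globulin, a serpin that carries hormone and has lost protease inhibition. Because its transcript is the one that stood apart among the 7, the stretch directly upstream of its start is shown, read from RefSeq (GRCm38.p6) at chrX:139085237-139085486 on the minus strand, 5′ to 3′. The capitals mark the only matches to the motifs searched, GTTAAT, part of the site of the liver-enriched factor HNF1, and TATAAA, the TATA box.

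Serpina7 upstream: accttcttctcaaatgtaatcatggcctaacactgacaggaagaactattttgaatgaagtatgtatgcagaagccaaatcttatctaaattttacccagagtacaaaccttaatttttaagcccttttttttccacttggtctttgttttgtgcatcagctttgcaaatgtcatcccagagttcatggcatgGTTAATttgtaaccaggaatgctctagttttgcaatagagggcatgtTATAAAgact

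GTTAAT began 57 bases and TATAAA 10 bases upstream of the first RefSeq start, and TATAAA began 27 bases upstream of the second. AGGTCA, the half-site of T3 receptors and their RXR partners, was in neither of the 2 *Serpina7* windows. Each motif was searched on both strands in windows from 250 bases before to 50 bases after the start, and the motifs share no letters in the stretch shown. Among 32851 such windows of the genome 7.10% held GTTAAT, 13.6% held TATAAA and 16.3% held AGGTCA.

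Windows of the other members held few matches. One of the 2 *Thrb* windows had AGGTCA beginning at position -184 and GTTAAT at -44, and the other had TATAAA at -167. One of the 2 *Rxra* windows had AGGTCA at -87 and -48. The *Slc16a10* window had GTTAAT at -232, and the *Dio1* window held none of the 3 motifs. These letters are a description of the windows and say nothing of which factors bound there in islets.

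*Serpina7* was much higher in KO than in WT islets. None of the other 6 genes differed by more than 0.28 on the log2 scale in its brightest probe set. All values are log2 signals as the authors deposited them. The single *Serpina7* probe set read 9.72, 8.69, 9.42, 8.63 and 8.80 in WT replicates 1 to 5 and 12.35, 12.86, 12.72 and 12.40 in KO replicates 1 to 4. The groups did not overlap, and the lowest KO value lay 2.63 above the highest WT value. WT replicates 1 and 3 were the higher WT pools, the other 3 lying within 8.63 to 8.80, and the KO pools lay closer together than the WT pools.

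The *Serpina7* mean of the 5 WT pools was 9.05 ± 0.49 (SD, n = 5), and that of the 4 KO pools was 12.58 ± 0.25 (SD, n = 4). The log2 difference was 3.53 ± 0.25 (SE from the limma fit, 95% interval 2.97 to 4.09), an 11.6-fold higher signal with an interval of 7.86 to 17.1. Taken back from the log2 means, the linear signal was 530 in WT and 6137 in KO islets. Leaving out any 1 array gave differences between 3.43 and 3.70. Among the 13644 tested genes 1 had a larger difference, and it also rose.

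**Figure D1:**
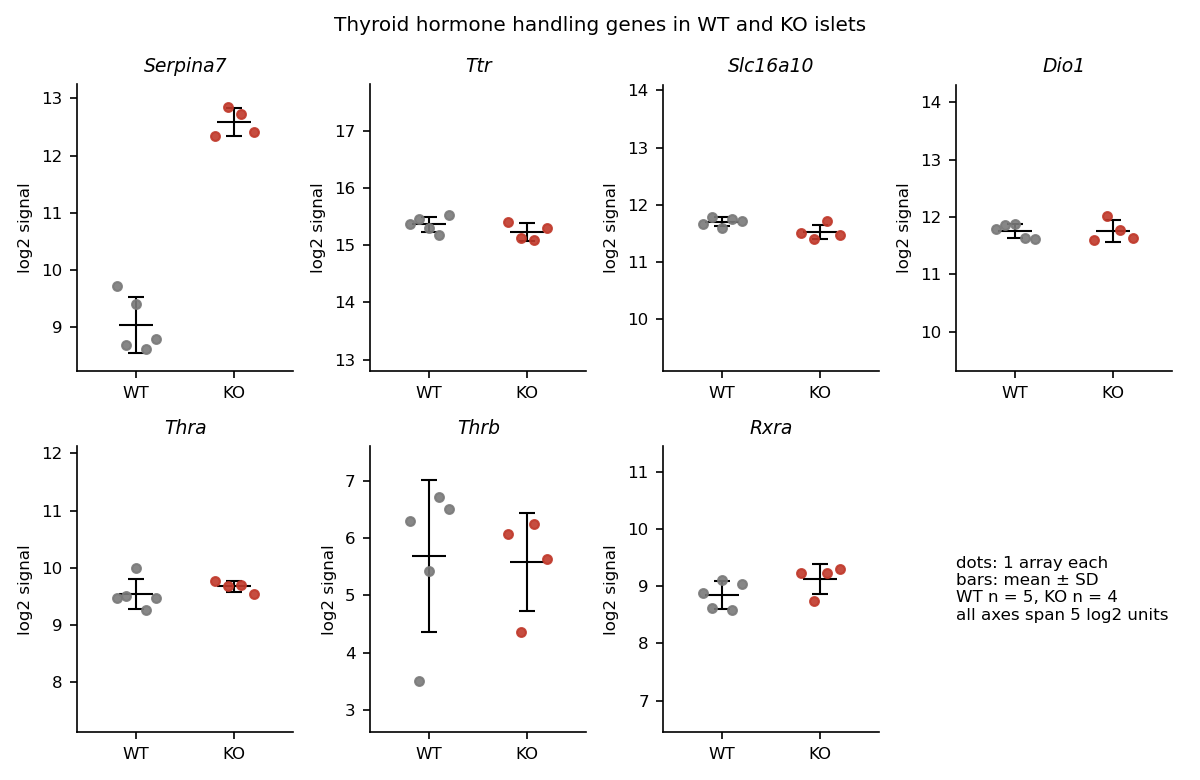
Log2 signal of each of the 7 genes (brightest probe set) in WT (grey, n = 5) and KO (red, n = 4) islets, with 1 dot per array and bars for the mean ± SD, every axis spanning 5 log2 units. The *Serpina7* dots form 2 separate clusters with means of 9.05 and 12.58, and the dots of the other 6 genes overlap between groups.

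Of all tested genes, 6.30% were called at a limma adjusted p under 0.05, 3.67% as higher and 2.63% as lower in KO islets, and 12.5% had groups that did not overlap. Among the 7 members, all of which passed the filter on dim genes, 1 was called and the same 1 did not overlap. These counts follow from how the genes were chosen. The median absolute difference of the other 6 was 0.134, against 0.191 over all tested genes. Islets were measured in bulk, so fewer cells of a type and less RNA per cell cannot be told apart in any value given here.

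*Ttr* encodes transthyretin, the other dedicated carrier of T4, and in contrast to *Serpina7* its signal was high in both groups. Its brightest probe set read 15.36, 15.45, 15.30, 15.17 and 15.53 in the WT pools and 15.41, 15.13, 15.08 and 15.31 in the KO pools. The groups overlapped, with a difference of -0.13 ± 0.11 (SE, 95% interval -0.37 to 0.11). The other 3 *Ttr* probe sets differed by -0.08, 0.01 and 0.15, without a common sign.

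These *Ttr* signals lay close to the highest value on any array, 15.56, where bright signals can be compressed, so the interval bounds the change in signal and may not bound the change in transcript. The 2 T4 carriers therefore gave different pictures on these arrays, a separated rise of *Serpina7* and overlapping *Ttr* signals. No difference between their 2 changes was tested, because the pair was chosen with both known.

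*Slc16a10* encodes MCT10, which moves T3 and aromatic amino acids across the plasma membrane. Its brightest probe set read 11.67, 11.80, 11.60, 11.76 and 11.71 in the WT pools and 11.51, 11.41, 11.71 and 11.48 in the KO pools. KO replicate 3 lay inside the WT range and the other 3 KO pools lay below it. The difference was -0.18 ± 0.09 (SE, 95% interval -0.38 to 0.02). The next brightest probe set differed by -0.13, and the 2 dim ones went opposite ways, by -0.54 (95% interval -1.13 to 0.04) and 0.46 (95% interval -0.53 to 1.44).

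*Dio1* encodes the type 1 deiodinase, which removes iodine from T4 to form T3 and also clears inactive forms. Its 1 probe set read 11.79, 11.86, 11.87, 11.63 and 11.61 in the WT pools and 11.60, 12.02, 11.77 and 11.64 in the KO pools. The 2 groups overlapped, with KO replicate 1 just below the lowest WT pool and KO replicate 2, at 12.02, above every WT pool. The difference was 0.01 ± 0.11 (SE), with a 95% interval of -0.25 to 0.26.

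The receptor genes overlapped between groups as well. *Thra*, which encodes the receptor TRα and the splice form that does not bind T3, read 9.48, 9.51, 9.99, 9.27 and 9.47 in the WT pools and 9.78, 9.69, 9.70 and 9.55 in the KO pools. All 4 KO pools lay above 4 of the 5 WT pools and below WT replicate 3, and the difference was 0.14 ± 0.14 (SE, 95% interval -0.18 to 0.46). The other 2 *Thra* probe sets differed by -0.00 and -0.15, so the sign was not shared. Which splice form a probe set reads was not examined.

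*Thrb*, which encodes TRβ, was the member measured least precisely. Its 1 probe set read 6.30, 3.50, 5.41, 6.71 and 6.51 in the WT pools and 6.07, 4.36, 6.24 and 5.64 in the KO pools. The WT pools alone covered a range of 3.22, with WT replicate 2 lowest. The within-group SD was 1.14, against 0.10 for *Slc16a10*. The difference of -0.11 ± 0.68 (SE) had a 95% interval from -1.64 to 1.43, so a change of *Thrb* of less than that size was not detectable on these arrays.

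*Rxra* encodes RXRα, a partner of both receptors and of several other nuclear receptors. Its brightest probe set read 8.88, 8.62, 9.11, 8.59 and 9.04 in the WT pools and 9.23, 8.74, 9.24 and 9.30 in the KO pools. Of the 4 KO pools 3 lay above every WT pool, and KO replicate 2 lay inside the WT range. The difference was 0.28 ± 0.16 (SE, 95% interval -0.08 to 0.64), the largest after that of *Serpina7* among the brightest probe sets. The other 2 probe sets differed the opposite way, by -0.25 and -0.48, and the mean of all 3 gave -0.15.

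**Figure D2:**
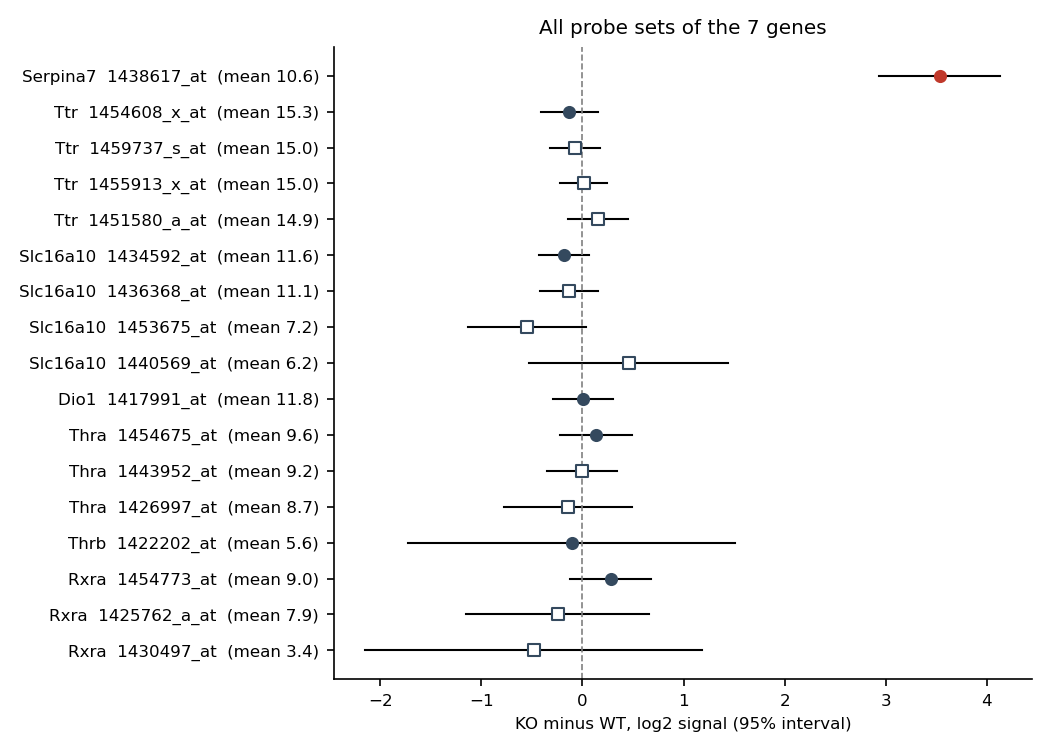
KO minus WT difference in log2 signal (dots, filled for the brightest probe set of a gene) with its 95% interval for all 17 probe sets of the 7 genes, from a fit over all probe sets paired with 1 gene, with the mean log2 signal in brackets. The interval of *Serpina7* lies far above 0, and the intervals of the other 16 probe sets hold 0 and widen as the signal falls.

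Across every probe set of the other 6 genes, 16 of 16 intervals held 0. The *Serpina7* rise rests on 1 probe set, so no second probe set of the gene was there to set beside it. The signs of *Ttr*, *Slc16a10*, *Thra* and *Rxra* differed between their own probe sets.

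**Figure D3:**
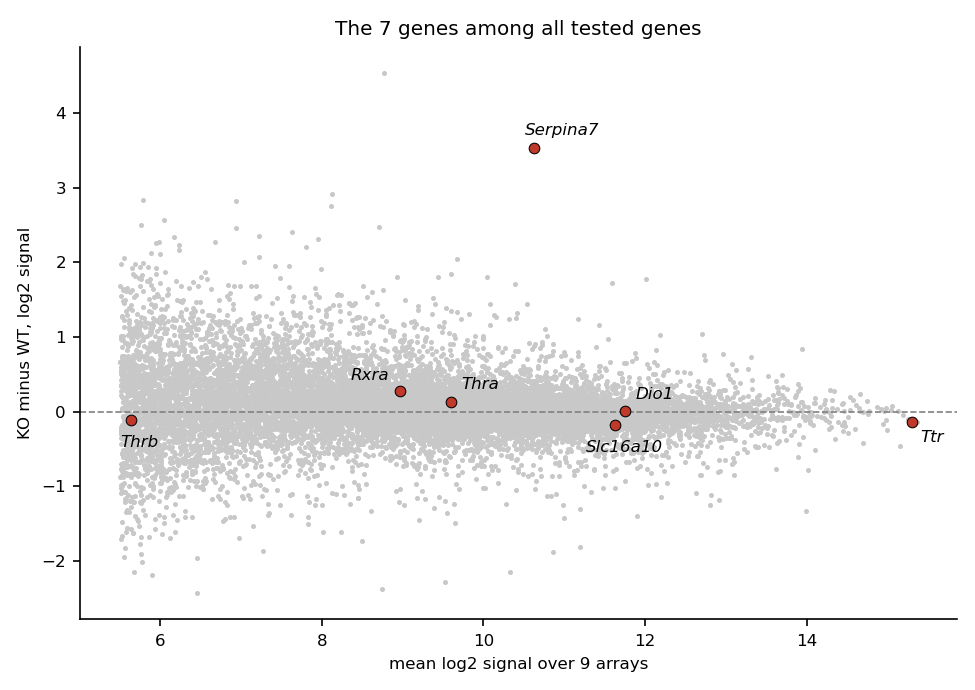
KO minus WT difference in log2 signal against the mean log2 signal over 9 arrays for the 13644 tested genes (grey) and the 7 members (red). *Serpina7* lies above all other genes but 1, and the other members lie in the bulk between -0.18 and 0.28, although levels of different probe sets are not comparable as amounts of transcript.

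The genes whose pattern over the 9 arrays was most like that of *Serpina7* were *Pamr1*, *Tmem59l*, *Arrdc4*, *Zfp189* and *Pfkfb3*, with Pearson r of 0.99, 0.99, 0.98, 0.98 and 0.98. *Pamr1* rose from 10.50 ± 0.15 (SD, n = 5) to 11.31 ± 0.04 (SD, n = 4), a difference of 0.81. *Pfkfb3*, which encodes a regulator of glycolysis, went from 6.89 ± 0.52 (SD, n = 5) to 9.65 ± 0.11 (SD, n = 4), a difference of 2.76. The lowest r belonged to *Brsk2*, *Atp7a* and *Sytl4*, at -0.99 each, with differences of -0.26, -0.44 and -1.19.

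These r values mostly carry the distance between the groups that all these genes share, and they are descriptions. Within the groups, as deviations from the group mean, the highest r with *Serpina7* were those of *Stk11ip* (0.99), *Frs3* (0.95) and *Lbh* (0.95). Their KO minus WT differences were 0.17, -0.26 and -0.41, and their groups overlapped. Of the other members, *Slc16a10* and *Ttr* had r of -0.75 and -0.50 with *Serpina7* over the arrays, *Rxra* and *Thra* 0.56 and 0.42, *Dio1* 0.13 and *Thrb* -0.05. Within the groups the values were -0.40 for *Slc16a10*, -0.30 for *Ttr*, 0.17 for *Rxra*, 0.46 for *Thra*, 0.57 for *Dio1* and 0.03 for *Thrb*.

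Mean signals of several cell type marker lists differed between the groups as well. Over 8 of 8 markers of the stroma (fibroblasts, stellate cells and pericytes) the mean log2 signal was 8.73 to 10.02 in WT and 10.41 to 11.04 in KO islets, a difference of 1.40 (adjusted p = 0.0344, exact two-sided permutation test adjusted over 13 lists). Ductal markers were higher by 1.03 (5 of 5 measured, 2 under the filter and none of the 3 tested called). Beta cell markers were lower by 0.60, from 13.88 to 13.28 (7 of 9 measured). The beta cell list had adjusted p = 0.0258 by the same exact test. The paper already reports *Slc2a2*, *Nkx6-1*, *Pdx1* and *Ucn3* as lower in these mutant islets, and the list was chosen with that known. This p is therefore not independent evidence. *Krt7*, the bright ductal marker, differed by 0.11, and the other ductal markers had WT means of 4.20 to 5.33. *Krt19* and *Sox9* passed the filter only through their KO values, so the ductal difference is given as a description. Of the beta cell markers 4 of 7 were called by limma, *Slc2a2*, *Nkx6-1*, *Ucn3* and *Pdx1*, at -1.33 to -0.62. *Ins2*, *Iapp* and *G6pc2* were not called, at -0.05, -0.12 and -0.24. *Iapp* and *G6pc2*, with WT means of 15.35 and 15.11, read close to the highest value on any array, 15.56, where bright signals can be compressed. Delta cell, endothelial, and Schwann and glial markers were higher by 0.45, 0.30 and 0.88 (adjusted p = 0.0258, 0.0258 and 0.0344, exact test). Limma called 1 of 3, 0 of 7 and 1 of 4 of their tested markers. *Sst*, *Flt1* and *Sox10* differed by -0.04, -0.15 and -0.05, and every other marker of the same lists was higher. *Sst*, with a WT mean of 15.21, was likewise bright enough for its signal to be compressed. None of the lists named so far overlapped between groups, as with *Serpina7*, and their part in its rise was not tested. Leaving out any WT array, which leaves fewer splits, raised the adjusted p of each list with a p given so far to 0.0531 or 0.0619 (exact test). As a check of the labelled tissue, the beta cell mean was at least 13.18 on every array.

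Hepatocyte markers are given beside *Serpina7* because liver is its usual source. Over 6 of 7 markers the mean log2 signal was 4.49 to 5.68 in WT and 5.33 to 7.17 in KO islets, with 3 of the 6 under the filter, a difference of 1.05 (adjusted p = 0.0590, exact permutation test). It was 0.68 without KO replicate 2, and 1.29 without KO replicate 3 (adjusted p = 0.0387, exact test). *Ahsg* was dim throughout, at 1.92 to 4.37 in WT and 4.56 to 6.61 in KO islets. *Apoa1* covered 6.28 to 10.11 in WT and 6.29 to 10.33 in KO islets. KO replicate 2 had the highest hepatocyte mean, 7.17, and also the highest *Serpina7*, while KO replicate 3 had a hepatocyte mean of 5.33, inside the WT range, with *Serpina7* at 12.72. Whether hepatocyte RNA had a part in the *Serpina7* rise was not tested.

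Thyroid follicular markers, 2 of 4 measured, were dim, with means of 3.96 to 6.54 in WT and 3.85 to 6.11 in KO islets. *Tg*, the thyroglobulin gene that defines this cell type, was listed at 1.67 to 6.46 over all arrays. The members therefore were not accompanied by a bright thyroid follicular signal in either group. Of 11 thyroid gland genes, 3 were tested and 0 called by limma, with 1 at an unadjusted p under 0.05. That gene was *Duox1*, an oxidase of hormone synthesis, which passed the filter only through its WT values and was not tested without WT replicate 1. Its difference of -0.82 ± 0.29 (SE) is therefore a description.

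*Serpina7* belongs to clade A of the serpins, many of which are secreted by liver. Of the other 23 genes of the clade listed, 13 were measured and 3 passed the filter, and limma called 0 of these, with 1 at an unadjusted p under 0.05. That gene was *Serpina10*, which encodes the protein Z-dependent protease inhibitor of coagulation. It read 12.08, 11.88, 12.12, 12.02 and 11.89 in the WT pools and 12.36, 12.38, 12.20 and 12.46 in the KO pools. The groups did not overlap, and the difference of 0.35 ± 0.09 (SE) missed the threshold (limma adjusted p = 0.0588).

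The remaining 2 tested serpins were *Serpina1c* at 0.50 ± 0.38 (SE) and *Serpina4-ps1* at 0.44 ± 0.47 (SE), both dim and overlapping. *Serpina6*, the corticosteroid carrier and likewise a hormone-binding serpin, was under the filter, at 2.81 to 5.71 in WT and 4.05 to 6.12 in KO islets. Close copies such as the *Serpina1* genes share sequence, so their signals cannot be told apart. The median difference of the 3 tested was 0.44, the value of *Serpina4-ps1*. That gene passed the filter only through its KO values, so its difference is a description.

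Other genes of thyroid hormone handling came from 8 lists of 53 genes, 47 of them measured and 44 tested. Limma called 1 of the 44 higher and 3 lower in KO islets, and 40 were not called. That share, 9.09%, stands beside 6.30% of all tested genes, 3.67% being higher and 2.63% lower. The median difference was -0.08, and 13 of the 44 had an unadjusted p under 0.05, as had 21.8% of all tested genes. The 4 called genes were *Gpd2*, *Sepsecs*, *Kat2b* and *Ppargc1a*.

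**Figure D4:**
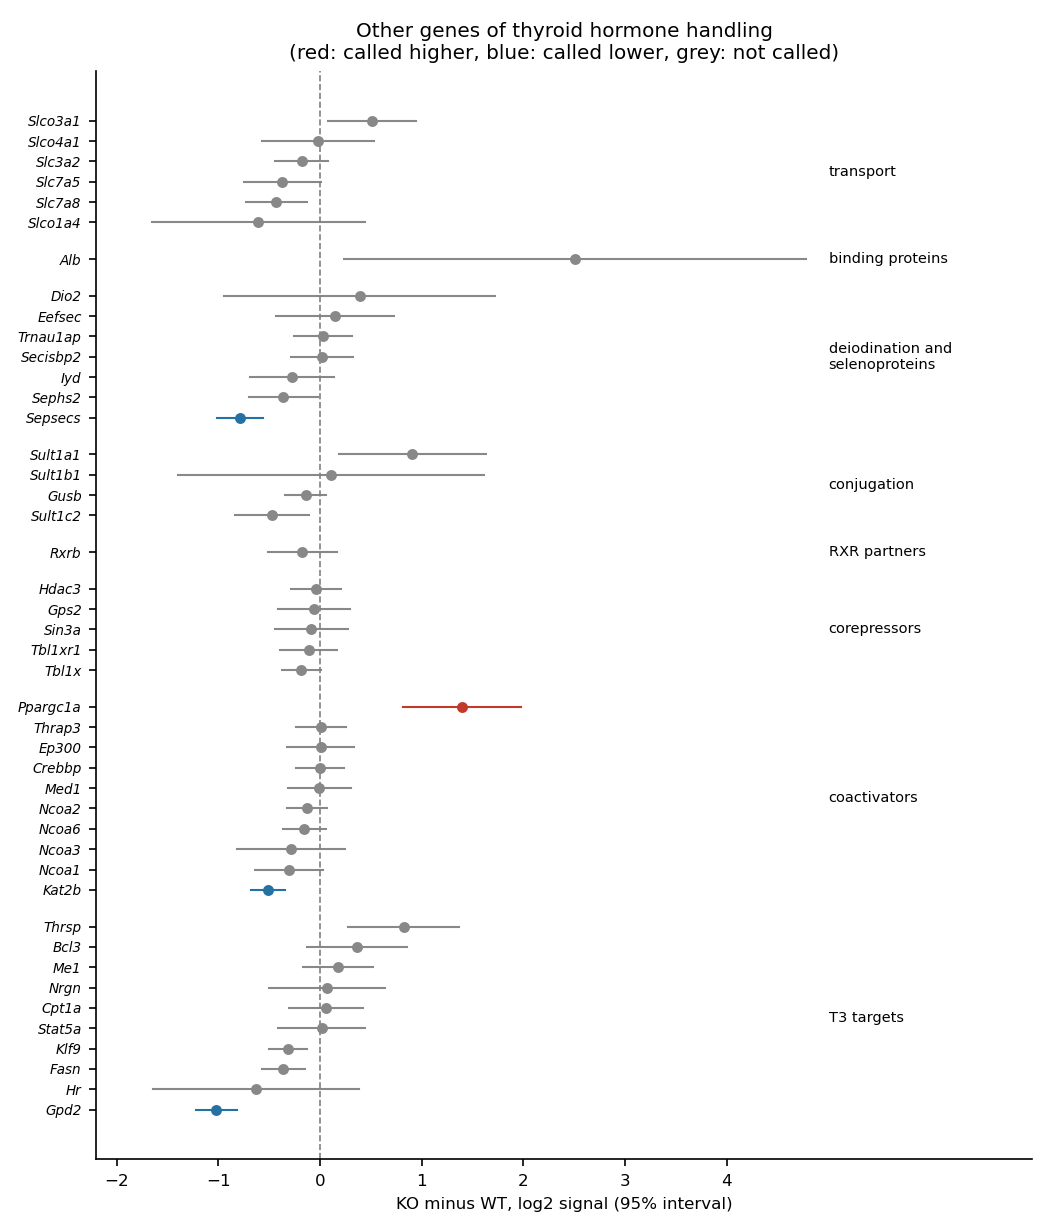
KO minus WT difference in log2 signal (dots) with its 95% interval (lines) for the 44 tested genes of thyroid hormone handling other than the members, grouped by role. *Ppargc1a* (red) was called higher and *Sepsecs*, *Kat2b* and *Gpd2* (blue) were called lower, and the 40 others (grey) were not called.

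Among the carriers and transporters 0 of 7 tested genes were called by limma, with 3 at an unadjusted p under 0.05. *Alb*, the albumin gene and the carrier of lowest affinity, read 6.19, 2.47, 6.20, 5.84 and 2.54 in the WT pools and 6.94, 8.97, 6.09 and 6.62 in the KO pools. KO replicate 2 stood highest, as it did for the hepatocyte markers, and KO replicate 3 lay inside the WT range. *Alb* passed the filter only through its KO values and was not tested without KO replicate 2, so its difference of 2.50 ± 1.00 (SE) is given as a description. *Slc7a8*, which encodes the amino acid transporter LAT2 that also moves T3, differed by -0.43 ± 0.13 (SE, limma adjusted p = 0.0925). *Slco3a1*, of the same transporter list, went the opposite way, at 0.51 ± 0.19 (SE, limma adjusted p = 0.162).

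Deiodinases and the machinery of selenoprotein synthesis gave 1 call among 7 tested genes. *Sepsecs*, whose product makes the selenocysteine that deiodinases carry on its transfer RNA, read 11.52, 11.68, 11.45, 11.35 and 11.39 in the WT pools and 10.49, 10.73, 10.74 and 10.79 in the KO pools. The groups were separate, with a difference of -0.79 ± 0.10 (SE, limma adjusted p = 0.00378), or 1.73-fold lower. Its other probe set differed by -0.82. With the probe sets of each gene averaged the limma adjusted p was 0.0599, and the call was lost.

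*Dio2*, the other activating deiodinase, was dim, with 4.12 to 6.34 in WT and 5.24 to 6.55 in KO islets. It passed the filter only through its KO values, so its difference of 0.39 ± 0.59 (SE) is given as a description. Thus *Sepsecs* was lower while *Dio1* and *Dio2* overlapped between groups. Conjugating enzymes gave 0 calls among 4 tested genes, with 2 at an unadjusted p under 0.05. The lowest p was that of *Sult1c2*, a sulfotransferase, at -0.47 ± 0.16 (SE, limma adjusted p = 0.120). *Sult1a1* went the opposite way, at 0.91 ± 0.32 (SE, limma adjusted p = 0.1335).

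The RXR partner list and the corepressors held no call and no gene with an unadjusted p under 0.05 in limma. *Rxrb*, the other tested retinoid X receptor gene, differed by -0.17 ± 0.15 (SE, limma adjusted p = 0.557), and *Rxrg* was under the filter. All 5 tested corepressor genes had differences between -0.18 and -0.04, of which *Tbl1x* had the lowest p (-0.18 ± 0.08 SE, limma adjusted p = 0.245). Of the 2 dimmer *Tbl1x* probe sets 1 did not overlap, at -0.66, and the other differed by 0.20. In the brightest probe sets of *Rxra*, *Rxrb* and the corepressor genes the groups overlapped.

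Of 10 tested coactivator genes, 1 was higher and 1 lower. *Ppargc1a*, which encodes PGC1α, a coactivator of thyroid hormone receptors and a regulator of mitochondrial genes, read 7.80, 7.14, 6.93, 7.50 and 6.84 in the WT pools and 8.75, 8.88, 8.93 and 7.99 in the KO pools. The lowest KO pool, replicate 4, lay just above the highest WT pool. The difference was 1.40 ± 0.26 (SE, limma adjusted p = 0.0162), or 2.63-fold higher. All 5 of its probe sets rose without overlap, by 1.16 to 1.52, but the call was lost without KO replicate 1, 2 or 3 (limma adjusted p = 0.0554, 0.0510 and 0.0533). The rise is one of RNA only. For the encoded protein the paper reports the opposite direction, a strong fall in mutant islets. Why transcript and protein differed was not tested.

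*Kat2b*, which encodes the acetyltransferase PCAF, was 12.12 to 12.31 in WT and 11.64 to 11.75 in KO islets. The groups were narrow and separate, with a difference of -0.51 ± 0.08 (SE, limma adjusted p = 0.00674). Its other 2 probe sets, both dimmer, differed by 0.00 and -0.22, and with all 3 averaged the limma adjusted p was 0.855. The fall of *Kat2b* thus rests on its brightest probe set.

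Among 10 tested target genes of T3, 1 was called, lower, and 4 had an unadjusted p under 0.05. *Gpd2*, the mitochondrial glycerol-3-phosphate dehydrogenase and a long-known target of T3, read 11.86, 12.07, 11.88, 12.02 and 11.85 in the WT pools and 10.82, 10.97, 11.01 and 10.87 in the KO pools. The groups lay far apart, with a difference of -1.02 ± 0.09 (SE, limma adjusted p = 0.000622), or 2.03-fold lower. All 4 of its probe sets were negative, from -1.16 to -0.70.

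The other 9 targets went both ways and none was called, although 3 of them were called in some alternatives. *Thrsp*, a lipogenic gene that T3 raises in liver, differed by 0.82 ± 0.24 (SE, limma adjusted p = 0.0822). *Klf9*, a transcription factor raised by T3 in many tissues, differed by -0.31 ± 0.08 (SE, limma adjusted p = 0.0563), and *Fasn*, the fatty acid synthase gene, by -0.36 ± 0.09 (SE, limma adjusted p = 0.0592), both without overlap. The target list therefore held differences of both signs beside the overlapping receptor genes *Thra* and *Thrb*.

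**Figure D5:**
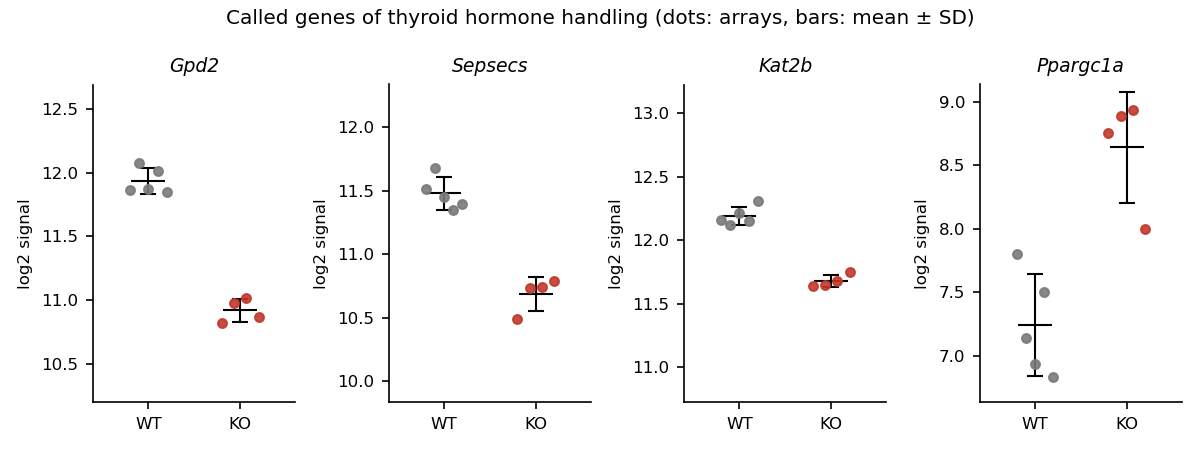
Log2 signal of the 4 called genes of thyroid hormone handling other than the members in WT (grey, n = 5) and KO (red, n = 4) islets, with 1 dot per array, bars for the mean ± SD, and every axis spanning 2.5 log2 units. The groups are separate in each panel, by the smallest distance for *Ppargc1a*.

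*Rptor*, the deleted gene, was lower in KO islets, from 9.47 ± 0.21 (SD, n = 5) to 8.75 ± 0.32 (SD, n = 4), a difference of -0.72 ± 0.17 (SE, limma adjusted p = 0.0410) without overlap. Its 2 dim probe sets differed by -0.41 and 0.65. The position of the *Rptor* probes against the floxed sequence is unknown here, so these values are a weak check of the deletion, and islet cells other than beta cells keep the gene. Array medians lay between 6.85 and 7.05, and no array stood apart in its trimmed mean signal, 497.1 to 497.7. With every array centred on its median, *Serpina7* still differed by 3.49, while the split of all called genes turned from 501 higher and 359 lower to 214 higher and 260 lower.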

How the data were processed

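Hand-picked islets were pooled from 5 animals per array. The deposited values are log2 signals, 1 per probe set and array. The labels name a 3′ in vitro transcription kit and the authors' methods Genespring, whereas summarisation and scaling are given in neither. Of 45037 probe sets, 34945 were paired with 1 gene, 932 with several and 9160 with none. A gene was represented by its brightest probe set, and the dimmest 25% of genes were left out. KO and WT islets were compared on the values as deposited with limma 3.58.1 in R 4.3.3 (no covariate, two-sided, Benjamini-Hochberg adjustment over 13644 genes, threshold 0.05), checked on simulated data. Single probe sets were fitted over all probe sets with 1 gene. Marker means were compared by an exact permutation test over 126 splits of the arrays. Promoter windows came from RefSeq (GRCm38.p6), in which 5 of 7 members were read (*Thra* and *Ttr* are only named).

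The members and all lists were chosen with earlier results of these data known. Besides the members and *Rptor*, the genes named were the called genes of each list, up to 4 by lowest p, or in a list without calls the gene of lowest p, and the genes most like *Serpina7* (the 5 highest and 3 lowest r over the arrays, and the 3 highest r within groups). Alternatives were the filter, averaged probe sets, median centring, quantile normalization, 16 added to the linear signal, the unpaired test of the methods, limma with trend and robust settings, a replicate block, and leaving out each array. Replicate numbers come from the sample titles. Some listed genes are not reported here. Genes outside the naming rule were chosen after their values were seen.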

Additional observations from a re-analysis of the deposited data

Results flagged for a closer look

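In 6 of 82 groups of arrays examined (7.32%, where chance gives about 1 in 20), 1 pool lay far from the others of its group. Among the members these were 1 *Ttr* probe set, at 14.82 in KO replicate 3 against 14.98 to 15.01 in the other KO pools, and all 3 *Rxra* probe sets. The brightest *Rxra* probe set was at 8.74 in KO replicate 2, with the others at 9.23 to 9.30. The second was at 6.82 in WT replicate 3, with the others at 8.17 to 8.36, and the dimmest was at 4.95 in KO replicate 4, with the others at 2.43 to 2.60. The 3 *Rxra* probe sets thus had their distant pool in different replicates. *Slc7a8* was at 10.84 in KO replicate 4, with the others at 10.40 to 10.46, and *Tbl1x* at 12.88 in WT replicate 4, with the others at 13.09 to 13.15.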

How the results depend on the processing

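The *Serpina7* difference, which chose the genes and is a description, lay between 3.43 and 3.70. The *Rxra* difference turned to -0.15 with averaged probe sets (0.22 to 0.41 when arrays were left out). Leaving out arrays moved *Dio1* between -0.08 and 0.06, *Thrb* between -0.66 and 0.30, *Thra* between 0.066 and 0.25, *Ttr* between -0.19 and -0.082 and *Rxrb* between -0.28 and -0.094. With averaged probe sets *Thra* was at -0.0050, *Ttr* at -0.011 and *Slc16a10* at -0.10, and with quantile normalization *Ttr* was at -0.00056. The 860 called genes became 452 without a filter, 317 with averaged probe sets, 474 with median centring and 375 to 802 with an array left out, falling by over 1.5 times without WT replicate 1 (475) or 2 (568) or KO replicate 1 (375), 2 (460), 3 (429) or 4 (472). The 3 lower genes of thyroid hormone handling became 6 with the dimmest 50% of genes left out, 1 with averaged probe sets, 4 with quantile normalization, 5 with the unpaired test of the methods and 6 with trend and robust settings, and stayed 3 without any 1 array. The 1 higher gene became 2 with trend and robust settings, and 0 to 3 with an array left out (0 without KO replicate 1, 2 or 3, 2 without WT replicate 5, 3 without WT replicate 3). With the dimmer genes left out *Ppargc1a* was not tested and the 1 higher gene was *Thrsp* (adjusted p = 0.0334). *Thrsp* was also called with trend and robust settings (0.0302) and without WT replicate 3 (0.0396), *Klf9* with dimmer genes left out, quantile normalization, the unpaired test, and trend and robust settings (0.0322, 0.0451, 0.0252 and 0.00726), and *Fasn* in those other than quantile normalization (0.0299, 0.0478 and 0.0281). In 4 settings (dimmer genes left out, quantile normalization, the unpaired test, trend and robust) 1 clade A serpin was called, *Serpina10*, with limma or test adjusted p of 0.0304, 0.0406, 0.0423 and 0.0145. *Slc7a8* was called with the dimmer genes left out (adjusted p = 0.0461) and with trend and robust settings (adjusted p = 0.0333). Replicate numbers were not taken to pair the pools. Correlations of deviations were -0.04, 0.09, 0.12 and -0.03, and 2 of 4 exceeded those with any other number. So few small correlations cannot decide whether the pools were paired. With a replicate block, in which WT replicate 5 has no partner and drops out of the estimate, 61 genes were called. Of the pathway genes 1 was called lower (*Gpd2*, limma adjusted p = 0.0474) and 0 higher. Acinar and lymphocyte marker means turned sign without KO replicate 3 (0.29) and KO replicate 2 (0.092), and ranged from -1.26 to 0.29 and from -0.74 to 0.092 when arrays were left out. With median centring the differences of delta cell, fibroblast and endothelial markers were 0.41, 1.36 and 0.26 and missed the threshold, as did the fibroblast list without any 1 array. Dim genes such as *Thrb* and *Dio2* are limited by signal near background, and the cause of the changed calls was not tested.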
